A study of Mus musculus with 10 samples.

Results

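Hematopoietic stem cells (HSCs) labelled Id1-/- (KO) were compared with HSCs labelled Id1+/+ (WT) in the condition that the labels call normal. The comparison uses 6 of the 10 libraries of the series, 3 KO-labelled (A, B and C) and 3 WT-labelled (A, B and C), assigned by their labels alone. Of 20270 genes in the deposited table, the 14500 with a value above 0 on the log2 CPM scale (CPM is the reads of a gene scaled to a common library total) in at least 2 of these 6 libraries were tested. All mice are given as C57BL/6, and both groups share the procedure: lineage-negative bone marrow cells of either genotype were transplanted, and HSCs were sorted by flow cytometry from the marrow of the primary recipients. The labels place the sort at 4 weeks after transplantation and the series design at 6 weeks. They do not define normal, and they describe neither the Id1 allele nor whether letters A, B and C are separate animals or pools, so p-values measure only the spread between these libraries. The other 4 libraries (2 per genotype, labelled stressed, also undefined) contributed to the estimate of the spread and are cited where the same difference was computed in them.

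Id1 is a helix-loop-helix protein without a DNA-binding region. It binds E proteins and keeps them from activating their target genes, and it is a classical target of bone morphogenetic protein signalling. HSCs are rare, mostly resting cells of the marrow that renew themselves and give rise to all blood lineages, and they are known for low rates of protein synthesis and low mitochondrial activity.

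Estimated depth was 30.01 to 33.0 M (mega) reads per library, and all 15 HSC markers examined were detected, with summed levels of 4577 to 4814 CPM in KO-labelled and 5249 to 5562 CPM in WT-labelled libraries. The 3 KO-labelled libraries were less alike (Pearson r across genes, which are not independent replicates, 0.921 to 0.933) than the WT-labelled ones (0.943 to 0.950). Between the groups r was 0.922 to 0.940, so the KO-labelled libraries were no more like each other than like the WT-labelled ones. Each KO-labelled library stood apart on a principal component of its own: A on the first (27.7% of the variance, score 91.1 against -25.1 to -9.53), C on the second (20.9%, 76.3 against -26.9 to 3.07) and B on the third (20.2%, -73.2 against -8.20 to 29.7). Genes with 0 reads numbered 1693 to 2211 in KO-labelled and 1342 to 1524 in WT-labelled libraries. Because the samples are bulk RNA, fewer cells of a type and less RNA per cell cannot be told apart.

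Transcripts of Id1, the gene the genotypes refer to (mm10 chromosome 2, plus strand, 152736251 to 152737410, ENSMUSG00000042745.9), were present in all 6 libraries and higher in the KO-labelled ones. They stood at 13.2, 10.6 and 9.62 CPM in KO-labelled libraries A, B and C, and at 1.35, 1.72 and 3.17 CPM in WT-labelled libraries A, B and C. The groups did not overlap, and the lowest KO-labelled library was above the highest WT-labelled one. The log2 difference was 2.50 (SE 0.45, limma adjusted p = 0.014, n = 3 and 3), a 5.67-fold higher level. An exact two-sided permutation test over the 6 libraries gave p = 0.10, the smallest that 3 against 3 allows. The call was lost without KO-labelled library A (adjusted p = 0.066), WT-labelled library A (0.067) or WT-labelled library B (0.066) in limma, and the difference was then 2.38, 2.24 and 2.42. The level goes against a loss of the whole transcript in the libraries labelled KO. The deposited totals per gene do not show which part of Id1 the reads cover, so a transcript of a remaining part and a swap of labels cannot be told apart. In the stressed libraries Id1 differed by 1.88 (limma adjusted p = 0.32). All directions below follow the labels. Of the 18 tested genes of the Id protein, E protein and helix-loop-helix partner list, Id1 alone was called, and the list median was 0.01.

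Between the groups 248 genes were called by limma at a Benjamini-Hochberg adjusted p under 0.05, 1.71% of those tested. Of these, 193 were higher in KO-labelled HSCs (1.33%) and 55 lower (0.379%). Most differences were small: 10 of the higher and 7 of the lower genes changed at least 2-fold, and the median log2 difference was 0.45 among the higher and -0.37 among the lower. Over all genes tested the median was -0.0076, and 48.7% lay above 0. In every called gene the 3 libraries of one group lay wholly above those of the other, which was also true of 19.9% of all genes tested. Among the 193 higher genes, 71 encode proteins of the cytosolic ribosome and 30 encode parts of the respiratory chain and ATP synthase, leaving 92 that do neither. The count fell to 47 (38 higher and 9 lower) when the variance was moderated without a trend over the mean level, with 41 genes shared. It was 141, 133 and 148 without WT-labelled library A, B or C.

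**Figure D1:**
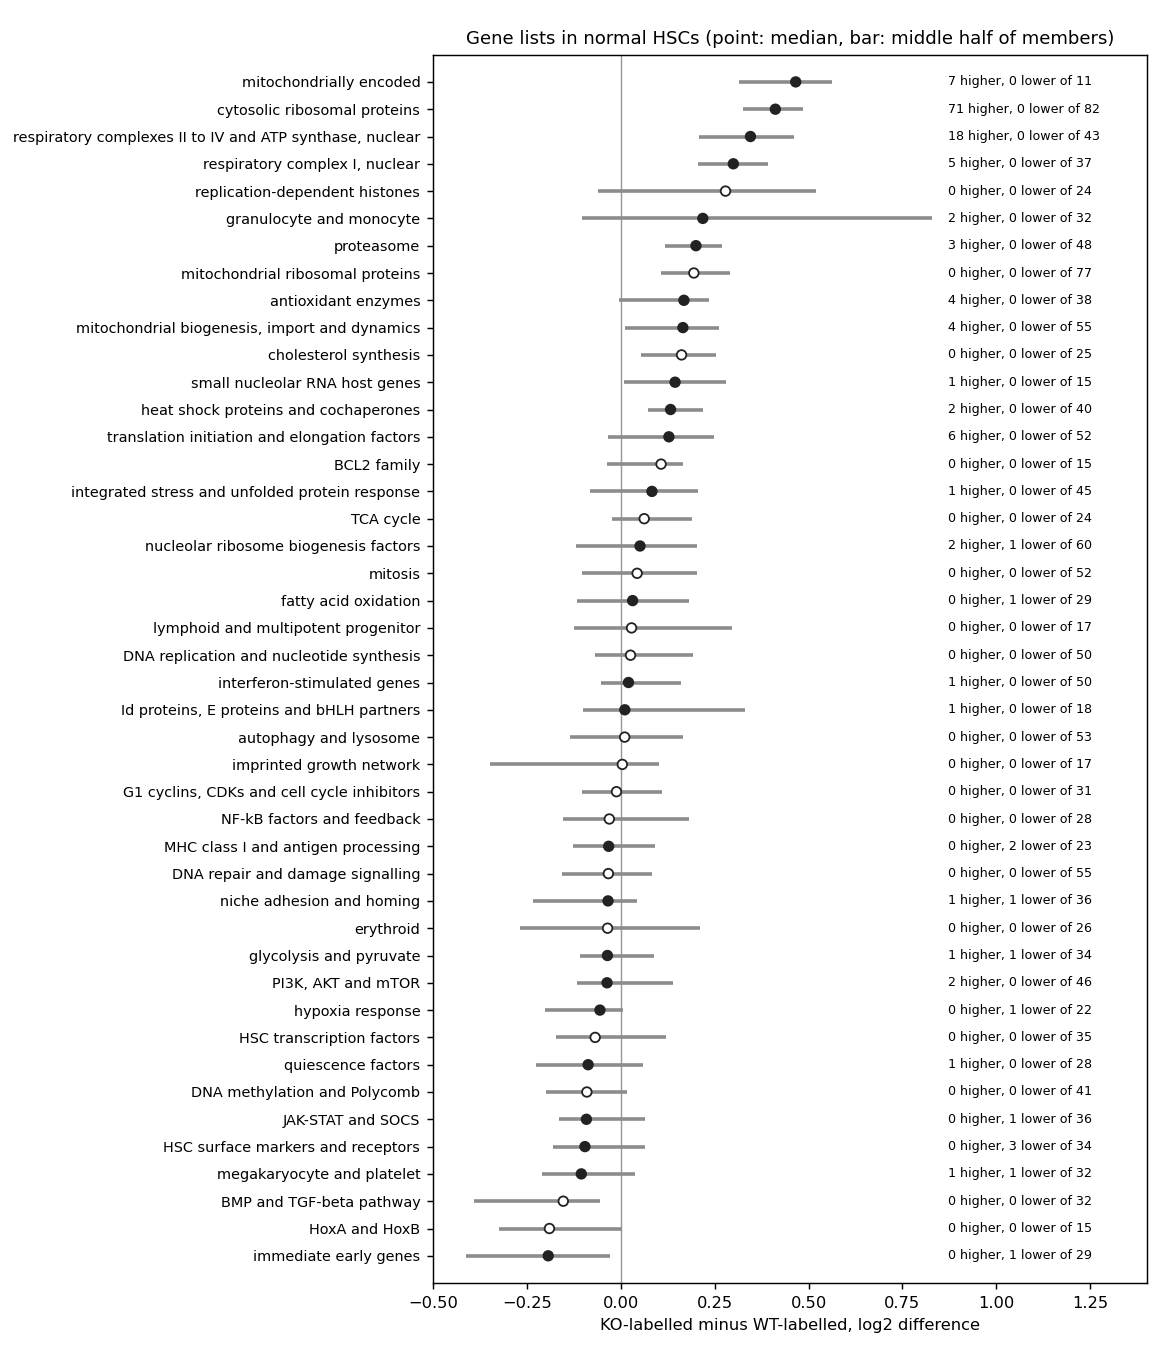
Median of the log2 differences, KO-labelled minus WT-labelled (points), for the members of 44 gene lists, with bars from the lower to the upper quartile and the numbers of called genes at the right; filled points mark lists with at least 1 called member. The lists of the cytosolic ribosome and the respiratory chain lie highest, with medians from 0.30 to 0.47, and the immediate early list lies lowest at -0.19.

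Genes of the cytosolic ribosome, the structural proteins of the 40S and 60S subunits, rose as a group. Of 82 tested members 71 were called higher and 0 lower, where 1.33% of all genes were called higher. The list median was 0.41, and 81 of the 82 members lay above 0. Rpl17, of the large subunit, stood at log2 levels of 8.31, 8.27 and 8.23 in KO-labelled libraries A, B and C, and at 7.51, 7.60 and 7.59 in the WT-labelled ones. It rose by 0.70 (SE 0.056, limma adjusted p = 0.00010). Rpl41, which encodes the smallest ribosomal protein, stood at 8.53, 8.56 and 8.68 against 7.91, 7.91 and 7.88, a rise of 0.68 (SE 0.054, limma adjusted p = 0.00010). In both genes the lowest KO-labelled library was well above the highest WT-labelled one.

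The other named members were similar in size of change. Rpl36 of the large subunit rose by 0.65, Rps14, which lines the platform of the small subunit, by 0.51, and Rps19, a small subunit protein needed to mature its ribosomal RNA, by 0.41. The called members ranged from Rps6, a small subunit protein phosphorylated downstream of mTOR (0.22), to Rpl17. Rpl17, Rpl41, Rpl36 and Rps14 kept their call in every alternative. Rps19 lost it without the trend in the variance, and Rps6 lost it without any of 5 libraries (highest adjusted p = 0.15). Of the 11 members that did not pass, the libraries overlapped in 3, among them Rpl3 (0.11) and Rpl24 (-0.03), named after their values were seen. Averaged over the list, KO-labelled libraries lay 0.14 to 0.26 above and WT-labelled libraries 0.19 to 0.22 below the members' 6-library means on the log2 scale. In the stressed libraries the list median was 0.11 and 0 members were called, where 0.117% of all genes were called. The difference between the conditions, tested per gene as an interaction in limma, was called in 0 ribosomal protein genes, against 0.0207% of all genes.

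Many ribosomal protein genes start their transcripts within a run of pyrimidines, the signature of messages whose translation follows mTOR activity. Start-site sequences of 61 of the 82 members are listed in RefSeq (build GRCm38.p6, the assembly of mm10). The 6 letters CTTTCC occurred on the sense strand from 50 bases before to 50 after the annotated start in 19 of these 61 (31.1%), against 5.21% of the 10167 tested genes with a sequence. The shorter CTTCC, which neither contains nor is contained in CTTTCC, occurred in 30 of 61 (49.2%), against 26.4%. Both strings were chosen after start sites of ribosomal protein genes had been looked at, so the shares describe the windows only. Among nuclear genes of the respiratory chain, CTTTCC occurred in 1 of 65 (1.54%) and CTTCC in 27 of 65 (41.5%). The windows below, 40 bases before to 20 after the start, are from called ribosomal protein genes that hold CTTTCC there. These windows are ordered by size of rise, with the match in capitals. They were chosen by that match and not by the rule for naming genes. Some ribosomal protein genes were left out before the match was looked for, whatever their rise, so the list may be incomplete.
Rps27, chr3:90213629-90213688, minus strand: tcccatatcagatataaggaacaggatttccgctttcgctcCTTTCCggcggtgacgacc
Rpl35a, chr16:33056442-33056501, plus strand: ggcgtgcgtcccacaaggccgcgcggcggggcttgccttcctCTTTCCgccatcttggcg
Rps10, chr17:27635225-27635284, minus strand: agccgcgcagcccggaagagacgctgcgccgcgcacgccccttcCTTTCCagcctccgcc
Rpl35, chr2:39005112-39005171, minus strand: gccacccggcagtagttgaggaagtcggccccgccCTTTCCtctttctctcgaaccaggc
Rpl38, chr11:114668540-114668599, plus strand: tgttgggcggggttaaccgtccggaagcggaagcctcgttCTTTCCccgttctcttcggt
Rpl15, chr14:18270967-18271026, minus strand: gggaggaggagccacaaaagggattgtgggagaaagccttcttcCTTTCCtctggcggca
Rpl18, chr7:45718031-45718090, plus strand: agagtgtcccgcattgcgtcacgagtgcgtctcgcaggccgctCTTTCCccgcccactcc

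Other parts of the translation apparatus moved less. Of 77 tested mitochondrial ribosomal protein genes, 0 were called by limma (24 at an unadjusted p under 0.05, all higher), although 74 lay above 0 and the median was 0.19. In 34 of the 77 the groups did not overlap with KO-labelled libraries higher, against 11.2% of all genes. The median coding length of the list was 588 bases. All tested genes with over 300 and up to 600 coding bases had a median difference of 0.18, close to that of the list. Mrpl42, which had the smallest p, differed by 0.31 (SE 0.076, limma adjusted p = 0.071). Of 52 initiation and elongation factor genes 6 were called higher and 0 lower (median 0.13). Naca, a subunit of the complex that receives nascent chains at the ribosome, stood at 8.71, 8.59 and 8.66 against 8.27, 8.26 and 8.31, and rose by 0.37 (SE 0.048, limma adjusted p = 0.0020). Of 60 nucleolar ribosome biogenesis genes 2 were higher and 1 lower (median 0.05). Npm1, the nucleolar chaperone nucleophosmin, rose by 0.31. Ncl, which encodes nucleolin, was lower by 0.15, and it lost its call without any of 5 libraries (highest adjusted p = 0.18). Myc, a regulator of ribosome production, differed by -0.19 (limma adjusted p = 0.075).

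Part of the genes of oxidative phosphorylation also rose in KO-labelled HSCs. Of 43 tested nuclear genes of complexes II to IV and ATP synthase, 18 were called higher and 0 lower, with a median of 0.35. With the coding length trend removed 2 were called and the median was 0.18, and without the trend in the variance 5 were called. Usmg5, a small subunit of ATP synthase, stood at 6.74, 6.92 and 6.86 in KO-labelled libraries against 6.07, 6.13 and 6.06, and rose by 0.76 (SE 0.082, limma adjusted p = 0.00081). Atp5e, the epsilon subunit of ATP synthase, rose by 0.66. Uqcr10 of complex III rose by 0.65, Cox6b1 of complex IV by 0.43, and Atpif1, the inhibitor of ATP hydrolysis by the synthase, by 0.49. For these genes the 3 KO-labelled libraries all lay above the 3 WT-labelled ones.

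Complex I takes electrons from NADH. Of 37 tested genes on its nuclear list, 5 were called higher and 0 lower, with a median of 0.30. With the coding length trend removed 0 were called and the median was 0.17, and without the trend in the variance 0 were called. Ndufa4 stood at 7.69, 7.57 and 7.56 against 7.21, 7.20 and 7.21, a rise of 0.40 (SE 0.066, limma adjusted p = 0.0081). It is on this list by its name, although its product is a subunit of complex IV. It is counted with complex I throughout. The other 4 calls (Ndufb9, Ndufa6, Ndufb4 and Ndufv2, with differences from 0.31 to 0.56) were each lost when any of at least 5 libraries was left out. In 29 of the 37 members the groups did not overlap with KO-labelled libraries higher, against 11.2% of all genes.

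Of 11 tested genes on the list of mitochondrially encoded genes, 7 were called higher and 0 lower, with a median of 0.47. Of all 14 tested genes transcribed from mitochondrial DNA, on this list or not, 8 were called higher and 0 lower. mt-Co1, the catalytic subunit of complex IV, stood at 11.85 in all 3 KO-labelled libraries and at 11.25, 11.35 and 11.25 in the WT-labelled ones, a rise of 0.56 (SE 0.029, limma adjusted p = 3.7e-06). Its equal values come from equal ranks in the normalization, so the SE is understated. mt-Nd2, mt-Nd4 and mt-Nd5, core subunits of complex I, rose by 0.62, 0.47 and 0.30. Averaged over the list, KO-labelled libraries B and C lay 0.35 and 0.39 above the 6-library means and library A close to 0, while WT-labelled libraries lay between -0.31 and -0.14. The number called was 4 without KO-labelled library C, WT-labelled library A or WT-labelled library C.

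**Figure D2:**
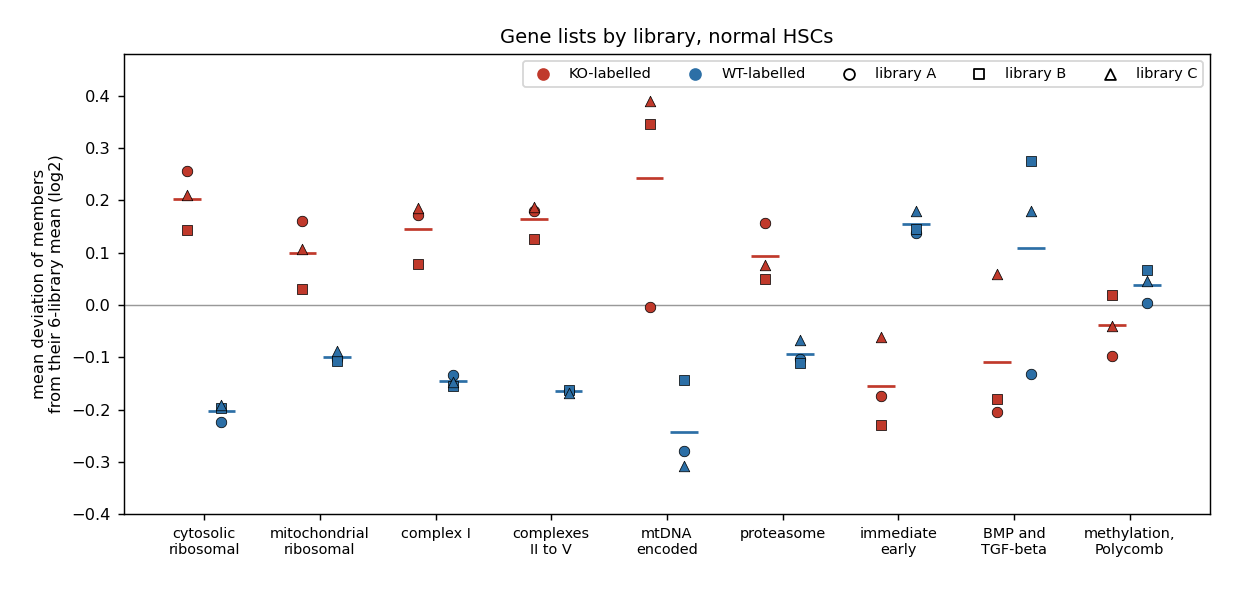
Mean deviation of the members of 9 gene lists from their own 6-library means (log2), by library, with bars at the group means. For the ribosomal lists, nuclear respiratory lists and proteasome the 3 KO-labelled libraries all lie above the 3 WT-labelled ones, and for the immediate early list all lie below, while the BMP and TGF-beta and the methylation lists overlap.

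Neighbouring metabolic lists showed few calls, where 1.33% of all genes were called higher and 0.379% lower. The share called higher was above that of all genes in mitochondrial biogenesis and import and in antioxidant enzymes, a difference that was not tested. The other lists had at most 1 call in either direction, too few to compare with these shares. Mitochondrial biogenesis and import had 4 higher and 0 lower of 55 (median 0.17), led by Hspe1, the mitochondrial co-chaperonin, which rose by 0.67 (SE 0.10, limma adjusted p = 0.0041). Antioxidant enzymes had 4 higher and 0 lower of 38 (median 0.17): Gpx1, a glutathione peroxidase, and Txn1, thioredoxin, rose by 0.35 each, and the peroxiredoxin genes Prdx1 and Prdx2 by 0.27 and 0.33. The peroxiredoxin calls were lost without any of 5 libraries (highest adjusted p = 0.11 for each). Glycolysis had 1 higher and 1 lower of 34, the TCA cycle 0 of 24 (6 at an unadjusted p under 0.05), cholesterol synthesis 0 of 25 (3) and fatty acid oxidation 1 lower of 29. That gene was Cpt1a, which admits fatty acids to mitochondria, lower by 0.32 and not called without any of 5 libraries (highest adjusted p = 0.13). The enzymes of the TCA cycle list with the smallest p, Mdh1 and Glud1, differed by 0.21 and -0.24 (limma adjusted p = 0.15 and 0.16).

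Protein quality control lists had few calls, all of them higher, where 1.33% of all genes were called higher. Of 48 proteasome genes 3 (6.25%) were higher and 0 lower (median 0.20), all 3 of the catalytic core's outer ring. In 29 of the 48 the groups did not overlap with KO-labelled libraries higher, against 11.2% of all genes. Psma7 stood at 8.46, 8.41 and 8.35 against 8.02, 7.98 and 8.02 and rose by 0.40 (SE 0.059, limma adjusted p = 0.0040). Psma3 rose by 0.33, and Psma2 by 0.41. The Psma2 call was lost without any WT-labelled library (highest adjusted p = 0.073). Of 40 heat shock genes 2 were higher, Dnajb1 and Dnaja1, cochaperones of HSP70 (0.44 and 0.29), and both calls were lost without any of at least 4 libraries (highest adjusted p = 0.15 and 0.18). Of 45 genes of the integrated stress and unfolded protein response, 1 was called. This was Trib3, a pseudokinase induced by ATF4, which stood at 5.41, 5.45 and 5.42 in KO-labelled and 4.32, 4.54 and 4.19 in WT-labelled libraries and rose by 1.08 (SE 0.14, limma adjusted p = 0.0021). Slc7a5, an amino acid transporter gene also induced by ATF4, differed by -0.41 (limma adjusted p = 0.051). Autophagy and lysosome genes had 0 calls of 53 by limma (8 at an unadjusted p under 0.05).

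Differences also followed the length of the coding sequence across genes outside these groups. Among 12369 tested genes with an annotated coding sequence, the median coding length was 444 bases for genes called higher, 2556 for genes called lower and 1404 for all. The median log2 difference was 0.28 in the 226 genes with up to 300 coding bases, 0.0050 in those with over 900 and up to 1500, and -0.14 in the 685 with over 4500. Without ribosomal protein and respiratory genes the first and last of these values were 0.25 and -0.14. In the shortest class every KO-labelled library had a median deviation above 0 (0.11 to 0.18) and every WT-labelled library one below 0 (-0.16 to -0.14). In the longest class the order was reversed, with -0.10 to -0.02 against 0.07 to 0.08. In the stressed libraries the medians of the shortest and longest classes were 0.098 and -0.0058.

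When the trend over coding length was taken out of each library, an alternative added after the data were seen, 102 of 12369 genes were called, 83 higher and 19 lower. Of the ribosomal protein genes 43 were called (median 0.28). Of nuclear complexes II to IV and ATP synthase 2 were (median 0.18), of complex I 0 (median 0.17), and of mitochondrially encoded genes 5 (median 0.41). Removing the trend over transcript length left 223 calls, and that over exonic length, also added afterwards, left 218. Among the genes named here, Kit, Tln1, Kdm3a, Lamtor5, Txn1, Ndufa4, Atp5e, Atpif1, Uqcr10, Cox6b1 and Myeov2 were among 44 of 86 that were not called with the coding length trend removed. Depth estimated from tied low values overlapped between the groups (30.5 to 33.0 M reads in KO-labelled and 30.01 to 31.6 in WT-labelled libraries). The deposited values were already normalized to nearly the same distribution, so these estimates are approximate and do not bear on the trend. The cause of the trend was not tested.

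**Figure D3:**
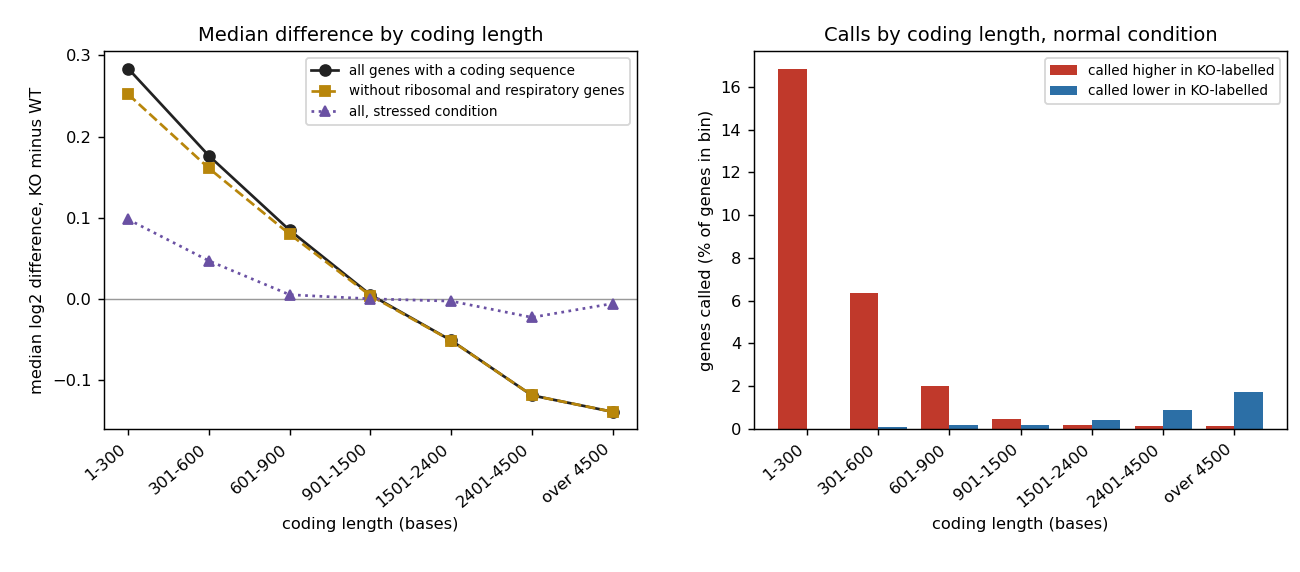
Median log2 difference between KO-labelled and WT-labelled HSCs in 7 classes of coding length (left, lines for all genes, for genes without ribosomal protein and respiratory members, and for the stressed condition) and the percent of each class called (right, bars by direction). In the normal condition the median goes from 0.28 in the shortest class to -0.14 in the longest, and the percent called higher from 16.8 to 0.146.

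Immediate early genes, which are transcribed within minutes of a growth or stress signal, mostly had lower levels in KO-labelled HSCs. Of 29 tested, 1 passed as lower and 0 as higher, where 0.379% of all genes were called lower. The median was -0.19, and 25 of the 29 lay below 0. In 14 of the 29 the groups did not overlap with KO-labelled libraries lower, against 8.74% of all genes. The called gene, Fos, encodes a subunit of the AP-1 transcription factor (ENSMUSG00000021250.13, chromosome 12, 85473890 to 85477273, plus strand). Fos stood at 9.62, 6.04 and 8.94 CPM in KO-labelled libraries and at 26.6, 29.5 and 26.5 CPM in WT-labelled libraries A, B and C. All KO-labelled libraries were below all WT-labelled ones, and Fos fell by 1.77 on the log2 scale (SE 0.20, limma adjusted p = 0.00093), keeping its call in every alternative. In the stressed libraries the difference had the other sign, 0.71 (SE 0.25, limma adjusted p = 0.43), and the list median was 0.01.

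The next members by p did not pass. Zfp36, which destabilizes messages of cytokines, differed by -0.44 (limma adjusted p = 0.066), Dusp1, a phosphatase of MAP kinases, by -0.41 (0.11), and Klf10 by -0.31 (0.20). Transcription of Fos responds to cyclic AMP through CREB sites that hold the letters TGACG. The 150 bases before its RefSeq start (chr12:85473740-85473889, plus strand, GRCm38.p6) are shown because Fos is the one called member, with TGACG (first bases at -129 and -66) and the TATA element (TATAAA, first base at -33) in capitals.
Fos: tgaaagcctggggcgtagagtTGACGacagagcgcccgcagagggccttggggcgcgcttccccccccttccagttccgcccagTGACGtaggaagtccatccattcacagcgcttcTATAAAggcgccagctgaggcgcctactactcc
On either strand from position -250 to 50 relative to the start, TGACG occurred in 15 of 24 immediate early genes with a sequence (62.5%), in 34.9% of all 10167 genes and in 52.5% of the ribosomal protein genes. TATAAA occurred on the sense strand within 50 bases of the start in 4 of 24 immediate early genes (16.7%) and 2.19% of all. These shares describe the letters only.

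Genes that mark HSCs were mostly similar, with lower levels of a few receptors. Of 34 tested surface markers and receptors 0 were higher and 3 lower, with a median of -0.10. Adgrg1 (GPR56), an adhesion receptor of stem and progenitor cells, stood at 11.35, 11.35 and 11.48 against 12.13, 11.85 and 11.85, and fell by 0.55 (SE 0.062, limma adjusted p = 0.00093). Levels this high are set by rank in the normalization, and mt-Co1 also takes the values 11.35 and 11.85. The size of the Adgrg1 difference and its SE are therefore uncertain. Kit, the receptor of stem cell factor, stood at 10.47, 10.54 and 10.47 against 10.80, 10.90 and 10.71, and fell by 0.31 (SE 0.046, limma adjusted p = 0.0036). KO-labelled libraries A and C hold the same Kit value, so the SE of Kit may also be understated. In both genes the highest KO-labelled library was below the lowest WT-labelled one, but both calls were lost without the trend in the variance.

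Other genes of HSC identity gave few calls. By limma, HSC transcription factors had 0 calls of 35 (11 at an unadjusted p under 0.05; median -0.07) and HoxA and HoxB genes 0 of 15 (2; median -0.19). DNA methylation and Polycomb genes had 0 of 41 (6; median -0.09) and imprinted growth genes 0 of 17 (3). Asxl1, a chromatin regulator, differed by -0.42 (limma adjusted p = 0.069), and Dnmt3a, a DNA methyltransferase, by -0.26 (0.17). Of 36 niche adhesion genes 1 was higher and 1 lower. Tln1, talin, which links integrins to actin, stood at 9.84, 10.05 and 9.97 against 10.26, 10.30 and 10.36 and fell by 0.35 (SE 0.051, limma adjusted p = 0.0036). Thbs1, the matrix protein thrombospondin, stood at 5.79, 6.25 and 5.57 against 5.29, 4.66 and 4.67 and rose by 1.001 (SE 0.20, limma adjusted p = 0.029). The Thbs1 call was lost without any of KO-labelled libraries A and B and WT-labelled libraries B and C (highest adjusted p = 0.14).

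Cell cycle lists had almost no calls. DNA replication (50 genes), mitosis (52), G1 cyclins and inhibitors (31), DNA repair (55) and replication-dependent histones (24) had 0 calls each by limma, with 14, 11, 6, 1 and 4 genes at an unadjusted p under 0.05 and medians of 0.03, 0.04, -0.01, -0.03 and 0.28. The BCL2 family had 0 calls of 15 and 0 at an unadjusted p under 0.05. Of 28 quiescence genes 1 was called, Ifitm1, an interferon-inducible membrane protein (0.27), whose call was lost without KO-labelled library C, WT-labelled library B or WT-labelled library C (highest adjusted p = 0.064). Cdkn1b, the cyclin-dependent kinase inhibitor p27, differed by 0.59 (limma adjusted p = 0.15), and Cdk1, the mitotic kinase, by 0.41 (0.088).

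Signalling lists had between 0 and 2 calls each. In the BMP and TGF-beta pathway, which lies upstream of Id1, 0 of 32 genes were called by limma (8 at an unadjusted p under 0.05, all lower), 26 lay below 0 and the median was -0.15. Tgfbr3, the betaglycan co-receptor, stood at 6.91, 7.15 and 7.18 against 7.36, 7.48 and 7.51, a difference of -0.37 (SE 0.084, limma adjusted p = 0.052). The groups did not overlap, but the difference missed the threshold. Kdm3a, a histone demethylase induced by hypoxia, fell by 0.58 (SE 0.089, limma adjusted p = 0.0046) and was the 1 of 22 hypoxia genes called. Of 46 PI3K, AKT and mTOR genes 2 were higher, Rps6 and Lamtor5, a subunit of the Ragulator complex that brings mTORC1 to lysosomes (0.54, SE 0.091, limma adjusted p = 0.0093). Interferon-stimulated genes had 1 call of 50 (Ifitm1) and NF-kB genes 0 of 28 (4 at an unadjusted p under 0.05). Of 36 JAK-STAT genes 1 was lower and 0 higher. Of 23 genes of MHC class I presentation 2 were lower: H2-K1 by 0.13 and H2-Q6 by 0.27. H2-K1 is held at 11.02 in every KO-labelled and 11.15 in every WT-labelled library by its rank, so its SE is understated, and reads of class I genes can be divided between near-identical copies.

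Mpo, the myeloperoxidase of granulocyte precursors, changed more than the other called lineage genes. It stood at 16.3, 15.5 and 14.5 CPM in KO-labelled and at 4.597, 1.94 and 3.63 CPM in WT-labelled libraries, without overlap. The log2 difference was 2.27 (SE 0.37, limma adjusted p = 0.0070). In the stressed libraries the Mpo difference was 2.58, and the 2 differences were not called different. Plac8, a myeloid gene, rose by 0.48, and its call was lost without any of 4 libraries (highest adjusted p = 0.088). These were the 2 calls among 32 granulocyte and monocyte genes (median 0.22). Ms4a3, a gene of granulocyte and monocyte progenitors, differed by 1.28 (limma adjusted p = 0.079). By limma, erythroid genes had 0 calls of 26 and lymphoid genes 0 of 17 (2 each at an unadjusted p under 0.05).

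Markers of other marrow cells were read beside these values. The 7 neutrophil markers in the table summed to 11.8 to 17.4 CPM in KO-labelled and 5.33 to 7.24 CPM in WT-labelled libraries, so the groups did not overlap. Of the 5 that were tested 0 were called by limma. S100a8, an abundant neutrophil calcium-binding protein, stood at 6.90, 3.40 and 4.18 against 0.54, 0.75 and 1.1996 CPM (limma adjusted p = 0.17), and S100a9, its partner, at 4.68, 3.59 and 2.89 against 1.11, 1.72 and 0.98 CPM (0.19). The other 5 markers overlapped between the groups: Ltf, the secondary granule protein lactoferrin, had 0 reads in every KO-labelled library against 0, 1.27 and 1.32 CPM, and Camp, Lcn2, Ngp and Cxcr2 were mixed. The part of such cells in the Mpo and Plac8 results was not tested. Macrophage markers (11 in the table) summed to 63.4 to 71.0 CPM against 73.2 to 84.5, with 1 called, Slc11a1, and megakaryocyte markers (7) to 605 to 656 against 667 to 706. The part of such cells in the results above was not tested. Of 7 mast cell and basophil markers, Kit and Gata2 are also HSC genes. The other 5, with Mcpt4 at 0 reads throughout, summed to 7.15 to 7.83 CPM in KO-labelled and 7.76 to 10.9 CPM in WT-labelled libraries, overlapping. Summed levels of markers of B cells, T and NK cells, erythroblasts and endothelial and stromal cells overlapped between the groups. Of those tested 0 were called by limma. Single markers did not all overlap: Hba-a1, Hba-a2, Cd4 and Kdr were lower in every KO-labelled library, and Nkg7 was higher. Hba-a1 stood at 1.70, 1.43 and 1.56 CPM in KO-labelled and 5.23, 4.00 and 3.80 CPM in WT-labelled libraries (limma adjusted p = 0.12).

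**Figure D4:**
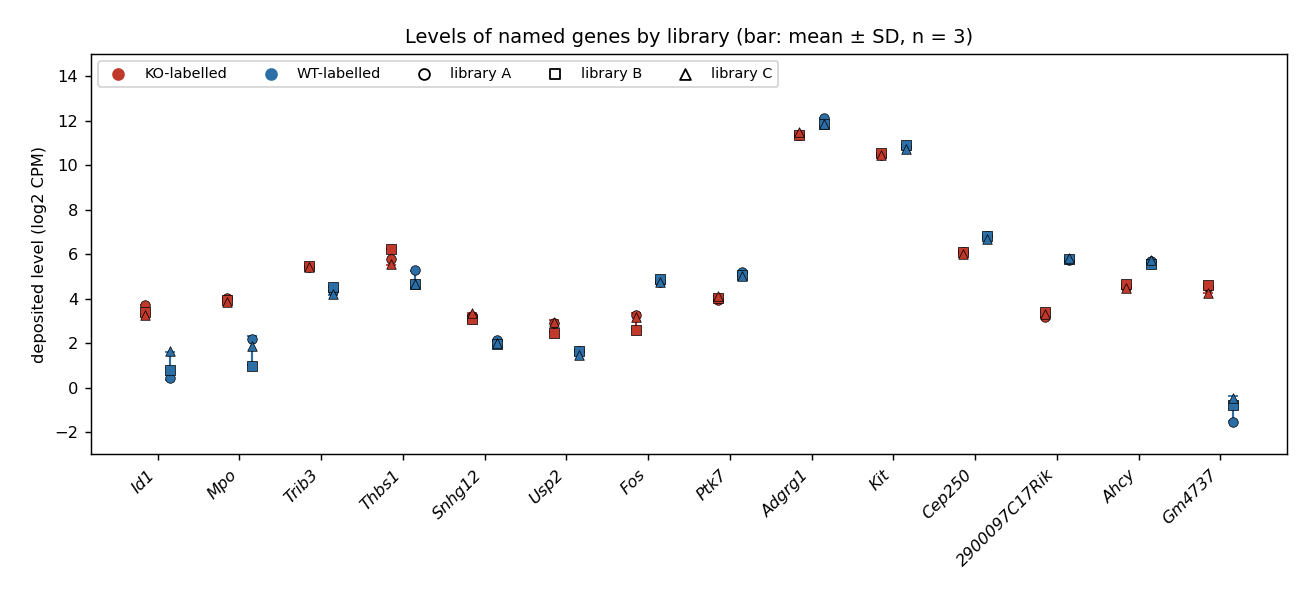
Deposited log2 CPM of 14 named genes by library (points, KO-labelled left and WT-labelled right of each position) with the mean and SD of each group (n = 3). All of these genes were called, and the libraries of the 2 groups do not overlap in them, as in every called gene. Id1 lies higher in the KO-labelled libraries, at 3.27 to 3.72 against 0.43 to 1.66.

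Further changes of at least 2-fold involved genes outside the lists, and several rest on few reads. Bpifc had 0 reads in all WT-labelled libraries and stood at 5.38, 1.68 and 5.05 CPM in KO-labelled ones. In the opposite direction, Emp2, a tetraspan membrane protein, had 0, 0 and 3 reads in KO-labelled libraries A, B and C and 3.52, 1.72 and 2.45 CPM in WT-labelled ones. Slc11a1, a metal ion transporter of macrophages, had 0, 1 and 0 reads in KO-labelled libraries and 22, 57 and 39 reads in WT-labelled ones. The sum of macrophage markers, given above, was also lower in KO-labelled libraries, and its part in this difference was not tested. Bpifc, Emp2 and Slc11a1 passed the filter on low values only through the group in which they were higher, so they had to differ. The Slc11a1 call was lost without WT-labelled library B or C (highest adjusted p = 0.079). Genes with 0 reads in 1 library and over 1 CPM in both others of its group numbered 23 to 49 per KO-labelled and 16 to 28 per WT-labelled library, so such gaps also arose within groups. Ptk7, a receptor-like protein of the planar cell polarity pathway, was well above this range at 3.93, 4.03 and 4.13 against 5.18, 5.06 and 5.02, and fell by 1.06 (SE 0.16, limma adjusted p = 0.0046).

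Among mid-level genes, Sec61g, a subunit of the protein channel of the endoplasmic reticulum, rose by 0.73, Myeov2 by 0.74 and Myl10, a myosin light chain gene, by 0.75, each keeping its call whichever library was left out. Snhg12, which hosts small nucleolar RNAs, Usp2, a deubiquitinase, and Clec2d, a lectin ligand of NK cell receptors, rose by 1.18, 1.19 and 1.18. These 3 calls were each lost without any of 5 libraries (highest adjusted p = 0.11, 0.15 and 0.15). The centrosomal gene Cep128 fell by 0.93, with the call lost without any of 4 libraries (highest adjusted p = 0.086).

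The surroundings of Id1 on chromosome 2 held several called genes. Within 5 Mb of Id1, 8 of 130 tested genes were called (6.15%, Id1 included), against 1.27% of the 1021 on the rest of chromosome 2, a difference that was not tested. Besides Id1 and Trib3, Raly (0.50) and Phf20 (0.54) were higher, and their calls were lost without any of 5 libraries (highest adjusted p = 0.096 and 0.12). Lower were 2900097C17Rik, a long noncoding RNA, Ahcy, Cep250 and Pygb, the brain glycogen phosphorylase (-0.42, call lost without any of 4 libraries, highest adjusted p = 0.15). 2900097C17Rik (156388065 to 156392979, minus strand) stood at 9.10, 10.6 and 9.81 CPM in KO-labelled and 52.7, 54.9 and 57.3 CPM in WT-labelled libraries, and fell by 2.48 (SE 0.16, limma adjusted p = 2.4e-05). Cep250, which encodes a centrosomal linker protein (155956458 to 155998900, plus strand), stood at 6.11, 6.08 and 6.00 against 6.80, 6.80 and 6.68 and fell by 0.69 (SE 0.087, limma adjusted p = 0.0018). In the stressed libraries, 2900097C17Rik, Ahcy and Cep250 also differed (-1.96, -0.96 and -0.99, limma adjusted p = 0.0028, 0.026 and 0.0033). The other neighbours called in the normal condition were not called there: Trib3 differed by -0.17, Raly by 0.0096, Phf20 by 0.43 and Pygb by -0.49. Cdk5rap1 and Epb41l1, also within 5 Mb, were called in the stressed libraries (-1.54 and 1.87, limma adjusted p = 0.026 and 0.031). In the normal condition they differed by -0.71 and 0.95 and were not called (limma adjusted p = 0.084 and 0.066). They are named outside the rule, after their values were seen.

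**Figure D5:**
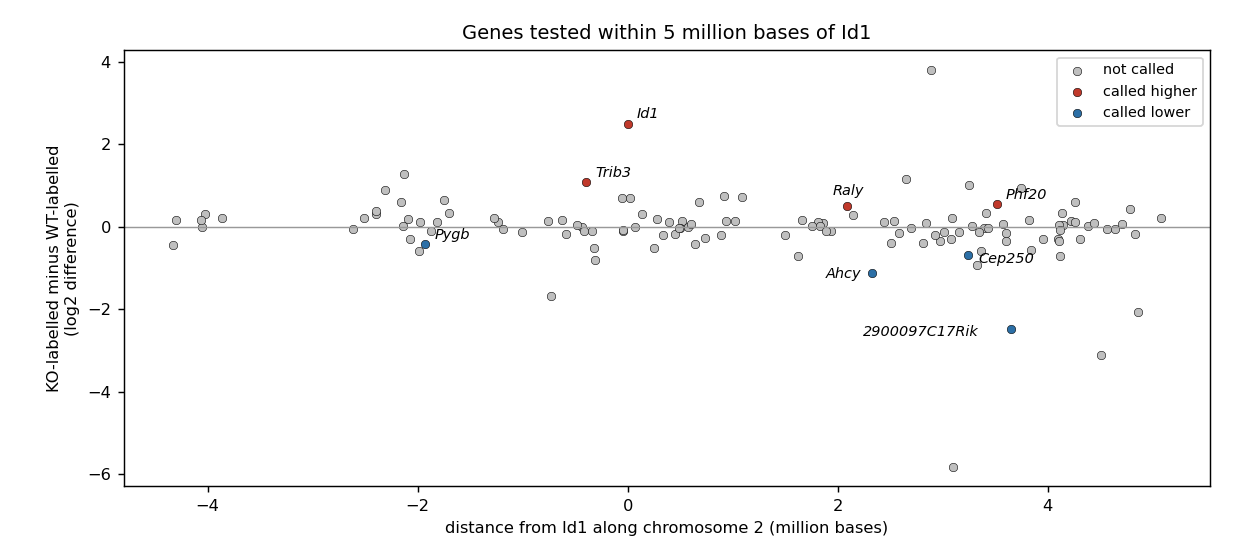
Log2 difference between KO-labelled and WT-labelled HSCs for the genes tested within 5 Mb of Id1, against distance along chromosome 2 (in Mb), with called genes named. Id1, Trib3, Raly and Phf20 lie above 0, and Pygb, Ahcy, Cep250 and 2900097C17Rik below.

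Ahcy, which encodes the enzyme that clears S-adenosylhomocysteine after methylation reactions, has a near-identical copy that can share its reads. Ahcy (155059310 to 155074497, minus strand) stood at 22.9, 25.6 and 22.2 CPM in KO-labelled and 51.1, 47.8 and 54.0 CPM in WT-labelled libraries, and fell by 1.11 (SE 0.11, limma adjusted p = 0.00061). Gm4737, a copy on chromosome 16 (46152985 to 46155077, minus strand) whose transcript is 99.7% identical over 2083 bases with 6 mismatches, had the opposite pattern (it is named outside the rule, after its value was seen). It stood at 23.2, 24.2 and 18.9 CPM in KO-labelled and 0.35, 0.58 and 0.72 CPM in WT-labelled libraries, and it passed the filter on low values only through the KO-labelled libraries. The sum of both was 46.1, 49.8 and 41.1 CPM in KO-labelled and 51.5, 48.3 and 54.7 CPM in WT-labelled libraries. These sums overlapped, and their log2 means differed by -0.18. The separate values of Ahcy and Gm4737 are therefore uncertain.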

How the data were processed

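Gene levels were measured by RNA sequencing of total RNA. Reads were aligned with Bowtie2 to mm10 and counted with featureCounts, per the submitters' processing notes, whose versions are not given in the sources used here. The authors deposited log2 CPM. Above 0, sorted values agreed within 0.01 at 81.3% of ranks across the 10 libraries, the pattern of quantile normalization. Ties differ, chiefly at the lowest value, -5.90, which stands for 0 reads. Read totals were estimated from tied low values, and reads are given up to 60 per gene. Both come from normalized values and not from counts, so they are approximate. Levels from few reads are imprecise.

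In R 4.3.3, limma 3.58.1 estimated a mean for each of the 4 groups from the 10 libraries together (residual degrees of freedom 6, variance trend, Benjamini-Hochberg over 14500 genes, called at adjusted p under 0.05). Tested on simulated data for this comparison over the same 14500 genes, it recovered 100% of 2-fold changes above the median level and 40% below it, and 66% and 6% of changes of 0.5 log2. The simulated spread depended on the mean level alone, without differences between genes, tied ranks or a lowest value. Recovery in the real data may therefore be lower. Coordinates and lengths come from GENCODE vM21 of mm10, which held 20199 of the genes. Copies were aligned with blastn 2.17.0. Plots used Python 3.11.15 with matplotlib 3.10.9.

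The comparison, 44 gene lists and 9 marker lists, the filter, the tests and the rule for naming genes were chosen with earlier results of these data known. The rule takes Id1 and, among called genes whose groups do not overlap, those that rose most and those that fell most (up to 20 each). It adds up to 5 members of each list by smallest p, markers, and called genes within 5 Mb of Id1. It leaves out predicted and unnamed genes unless among the 10 smallest p. Alternatives covered variance moderation, the libraries fitted, low-value filters (none, or above 2 in at least 3 libraries), a pseudocount of 1 CPM, trimmed mean scaling, library weights, a replicate block, length trends and each library left out. Some list members are not reported here.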

Additional observations from a re-analysis of the deposited data

Results flagged for a closer look

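In 3 of 14500 genes (0.0207%) the difference between KO-labelled and WT-labelled HSCs was called different between the normal and the stressed condition. The test was of the difference itself (interaction in limma over all 10 libraries, adjusted p under 0.05). With 2 stressed libraries per genotype, it does not show that the difference was the same in the genes not called. Genotype differences in the 2 conditions rest on separate control libraries.

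For mt-Co1 the difference was 0.56 in normal and -0.09 in stressed HSCs, so that the first exceeded the second by 0.66 (SE 0.045, limma adjusted p = 0.00011). The stressed libraries stood at 9.92 and 9.97 (KO-labelled) and 10.05 and 10.04 (WT-labelled), all below the normal ones, and the tied values of the normal libraries understate the SE.

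Fos differed by -1.77 in normal and by 0.71 in stressed HSCs, and the first minus the second was -2.49 (SE 0.32, limma adjusted p = 0.026). In the stressed condition it stood at 3.93 and 3.89 in KO-labelled and 3.11 and 3.29 in WT-labelled libraries.

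Hnrnpu, which encodes a nuclear RNA-binding scaffold protein and is named here outside the rule, after its value was seen, differed by -0.31 in normal and 0.23 in stressed HSCs, and the first minus the second was -0.54 (SE 0.060, limma adjusted p = 0.010). Its normal libraries stood at 9.82, 9.96 and 9.85 (KO-labelled) and 10.16, 10.22 and 10.18 (WT-labelled), and its stressed libraries at 10.21 and 10.26 against 9.99 and 10.01.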

How the results depend on the processing

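Among 88 called genes named or listed by the rule, 0 changed direction under any alternative. The count of 248 dropped to 47 when the variance had no trend and to 102 with the coding length trend removed, and lay between 133 and 261 when 1 library was left out. It was between 168 and 291 under the other alternatives, from the 6 normal libraries alone to the stricter filter. Without the trend in the variance, the calls numbered 15 (from 71) among ribosomal protein genes, 0 (from 5) in complex I, 5 (from 18) in complexes II to IV and ATP synthase and 1 (from 7) among mitochondrially encoded genes. With the coding length trend removed these counts were 43, 0, 2 and 5. Complex I had 1 call in the 6 normal libraries alone, 2 with the replicate block and 3 with the transcript or exonic length trend removed, and mitochondrially encoded genes had 4 with the exonic one. With 1 library left out, the counts were 57 to 69, 1 to 3, 11 to 17 and 4 to 8. The causes were not tested. The replicate block gave 191 calls. No pairing by letter was seen: the correlations of deviations between same-letter libraries were -0.019, -0.012 and -0.027. Between libraries of different letters they were -0.011 to 0.033. Correlations over all genes are a weak check and do not settle whether the letters pair the libraries. On the log2(CPM + 1) scale Id1 differed by 2.01, with the same exact p = 0.10. Changes of 0.5 log2 below the median level are mostly missed at this depth and n.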
